A study of Mus musculus with 2 samples.

Results

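The subject is 685 introns with splice sites that are missing from the mouse annotation and that were seen in both long-read RNA libraries of the adrenal gland. They were chosen from transcript models of the class NNC, which have at least 1 splice site absent from the reference. An intron was kept when no Known model and no annotated transcript held it at the same chromosome, strand, start and end, and when its NNC models summed to at least 3 reads in each of the 2 tables. This left 685 of 43978 unannotated introns of NNC models, or 1.56%. The 2 tables listed 27836 such introns in replicate 1 and 22924 in replicate 2, and 6782 introns were in both. The read counts chose the members, so their counts are given as a description with no test.

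The tissue was adrenal gland of 14-day-old female B6CASTF1/J mice, the F1 cross of a C57BL/6 and a CAST parent, with no treatment and no control group. Per the labels the tissue sample of replicate 1 came from 3x Females 03 and that of replicate 2 from Female 04, but both library descriptions name 3x Females, so a pool and a lone animal cannot be told apart. Each tissue sample gave 1 library, with Ambion and Lexogen spike-ins, and the reads of the C57BL/6 and CAST alleles were not separated in the tables. Replicate 1 held 1143111 reads and replicate 2 held 991731.

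A splice donor marks the start of an intron and usually begins with GT, while an acceptor marks its end and usually finishes with AG. Where a pair of AGs lies side by side, the splicing machinery can use either one, and a tandem acceptor of the NAGNAG kind then adds or drops a single amino acid. A shift that is no multiple of the codon length changes the reading frame downstream, and a stop codon well before the last exon junction is a known trigger of nonsense-mediated decay. Exons of a few bases, called microexons, are real parts of many genes and are hard to place when a read is aligned to the genome.

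Examples of tandem sites, acceptors 3 nt apart and donors 4 nt apart, are shown first, because both splice sites of the pair can be read in the same stretch. Some of these examples had few reads. All are on mm10 and written in transcript direction, with the bases read from GENCODE M21 transcripts. In the first 6 stretches the capitals mark the last intron bases of the upstream and of the downstream acceptor, 3 nt apart. The unannotated site is the downstream one in Cdkn1c, Mettl9, Puf60 and Pcyt2 and the upstream one in Ewsr1 and Fermt3. In the next 4 the capitals mark the GT of the annotated donor and the GT of the unannotated donor 4 nt further on.
Cdkn1c, chr7:143460665-143460694, minus strand: acgtgtacctccgcAGcAGaacagcgatgg
Mettl9, chr7:121076114-121076143, plus strand: tttttatttgttctAGtAGgtggcaagtgg
Puf60, chr15:76077689-76077718, minus strand: tccttcctgcctgcAGcAGgtcaatggcca
Pcyt2, chr11:120613410-120613439, minus strand: ttgcccttgtgtgcAGgAGatgtcctctga
Ewsr1, chr11:5079509-5079538, minus strand: tcgtttatccccccAGcAGcgctggagagc
Fermt3, chr19:7018829-7018858, minus strand: actcaccttgtctcAGcAGaaacagccgca
Idh3g, chrX:73782659-73782688, minus strand: ggagcatttcctcaGTaaGTacctgccttg
Ist1, chr8:109676742-109676771, minus strand: catcctatgaatctGTaaGTgcctgagcct
Rpl22, chr4:152325882-152325911, plus strand: ccatggcgcctgtgGTtaGTatggctccgc
Fabp4, chr3:10205225-10205254, minus strand: acaagctggtggtgGTgaGTtacgctgcat

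The members were thinly read. Their NNC reads ran from 3 to 366 with a median of 6 in replicate 1, and from 3 to 535 with a median of 5 in replicate 2. At the edge of the rule, 238 introns had exactly 3 reads in their lower library, with a median of 8 reads summed, and 725 introns had 2 there and stayed out, with a median of 5. NNC models drew 3.1% of the reads of replicate 1 and 2.98% of those of replicate 2, and 25% and 24.4% of those NNC reads carried a member. An identical intron chain around the member was present in both libraries for 601 of 685 (87.7%), and 400 members (58.4%) also had reads on models of other classes. The members lay in 554 genes, 453 of them with 1 member. Cyp21a1 held 7, Cyp11a1 6, Cidea 5, and Chga, Gmpr and Srd5a2 held 4 each.

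The donor was the unannotated end in 341 members (49.8%), the acceptor in 260 (38%) and both ends in 79 (11.5%). In the remaining 5, in Tcf7, Optn, Vav2, Slc27a1 and Sept7, both ends were annotated sites that no annotated transcript joins. Over all 43978 introns the shares were 41.3%, 41.5% and 14.8% for the first 3 kinds and 2.39% for the last. Where 1 end was unannotated, it lay within 12 nt of an annotated site of the same kind in 229 of 601 members (38.1%), against 33.3% over all introns. Acceptors lay closer than donors, with a median distance of 13.5 nt against 55 nt, and over all introns the medians were 37 nt and 117 nt.

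Acceptors moved by 3 nt were the most frequent offset among the members. The unannotated acceptor lay exactly 3 nt downstream in 59 of 260 members (22.7%) and exactly 3 nt upstream in 15 (5.77%), while over all introns these shares were 7.56% and 1.09%. The next offsets were 2 nt downstream with 14 members and 4 nt downstream with 13. In all 59 introns moved 3 nt downstream, the last intron bases read AG, and over all unannotated introns they did in 1363 of 1378 (98.9%). Among annotated acceptors with reads, 7657 of 144917 (5.28%) had an AG at exon bases 2 and 3, which is the sequence such a shift needs.

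**Figure D1:**
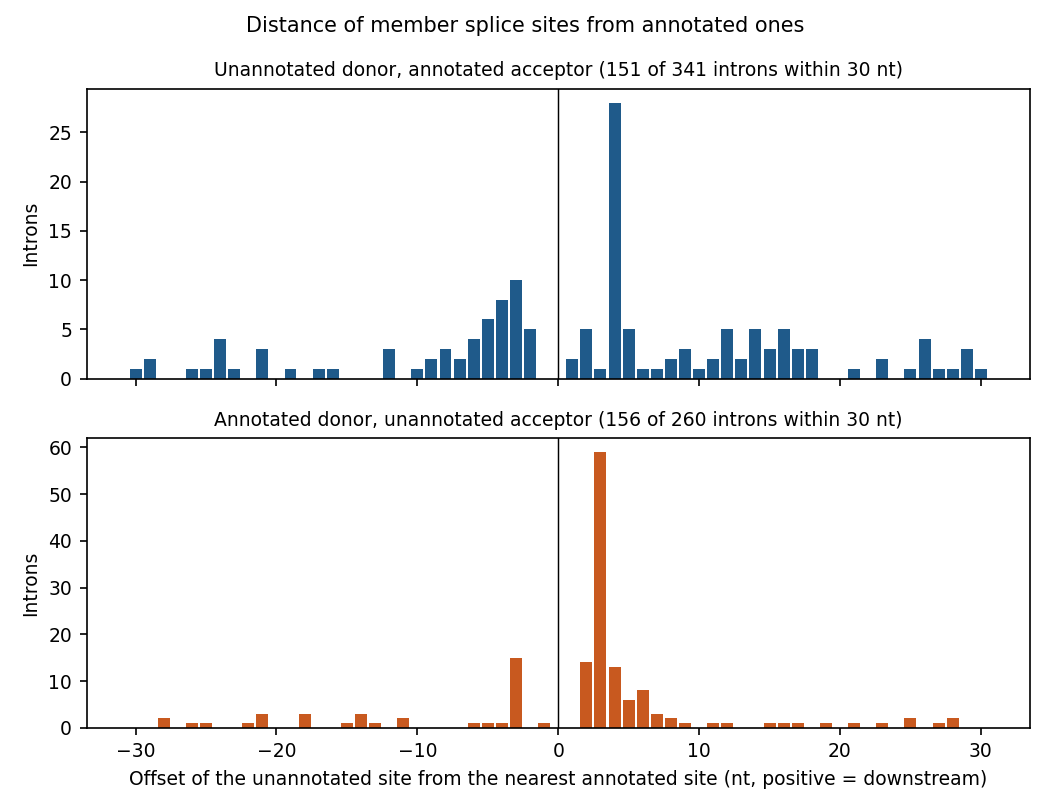
The horizontal axis is the distance in nt of the unannotated site from the nearest annotated site of the same kind, positive downstream, and the vertical axis counts member introns, for 341 unannotated donors (top) and 260 unannotated acceptors (bottom). The tallest bars are the 28 donors at +4 and the 59 acceptors at +3, with 15 acceptors at -3.

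For usage, the reads of every class with the intron were divided by all spliced reads with an intron over the same place, called informative reads. In Cdkn1c, a cyclin-dependent kinase inhibitor, the acceptor 3 nt downstream in the 5' UTR (intron chr7:143460676-143460852) had 298 of 1131 informative reads in replicate 1 and 189 of 697 in replicate 2. That is 26.4% and 27.1%, and the annotated partner intron drew 721 and 439 reads. Both libraries therefore used the annotated acceptor more. In Ewsr1, an RNA-binding protein, the acceptor 3 nt upstream had 109 of 371 and 68 of 200 reads, or 29.4% and 34%. It adds 1 residue to a protein of 661 residues. Mettl9, a histidine methyltransferase, lost 1 of 318 residues at 22.7% and 23.5% usage. Aebp1, a protein of the extracellular matrix, used its acceptor 3 nt upstream in 51.3% and 51% of reads, so the annotated and the unannotated sites were used about alike in both libraries.

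The acceptors moved by 3 nt covered almost the whole range of usage. Of the 73 with at least 10 informative reads in each library, the lowest mean usage was 0.236%, the median 11.3% and the highest 97.4%, and 39 were at 10% or more. The highest, in Rwdd4a, is no pair of AGs. Its intron ended in AT and stepped over an annotated exon of 3 nt that 0 reads held. Fam114a2 was at 74.7% and 67.8%. In Dus1l, which modifies tRNA, the shifted acceptor had 145 of 153 and 112 of 113 reads, and the annotated acceptor nearest to it is not joined to this donor in any annotated transcript. At the low end of the examples shown above, Puf60, itself a splicing factor, was at 6.53% and 4.21%, and Pcyt2, an enzyme of phosphatidylethanolamine synthesis, at 4.75% and 6.64%.

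Donors 4 nt downstream made up 28 of the 341 unannotated donors (8.21%), against 10.7% over all introns, so this offset was no more frequent among members. Among annotated donors whose intron could be read, 38.3% had a GT at intron bases 5 and 6. Of the 11 member donors at this offset with readable bases, 10 began with GT, against 442 of 451 (98%) over all introns. Of the 28, 5 also stepped over a short annotated exon, as described next. Without those, the median usage of the 22 with enough reads was 1.38%, from 0.177% to 90%, and 4 reached 10%. Fabp4, the fatty acid-binding protein of fat cells, was at 0.167% and 0.188% with 5 reads in each library. Rpl22, a ribosomal protein, had 3 reads in each library, 2.33% and 5.66%. Ist1, of the ESCRT machinery, was higher at 16.4% and 10.9%.

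Of the 12 members with the most reads, 9 stepped over a very short annotated exon. Such an intron ran from a site within 50 nt of an annotated donor to one within 50 nt of an annotated acceptor, with only annotated exons of at most 30 nt between them. This was so for 46 members (6.72%), against 464 of all 43978 introns (1.06%). The exon next to the moved site was lengthened in 43 of the 46. The added length was within 5 nt of the length of the short exons in 31 of 46 and equal to it in 5, against 194 of 464 within 5 nt over all such introns. Where several sets of annotated exons fitted, the set whose length came closest to the added length was taken. The closeness of the lengths is therefore partly set by this choice, for members and for all such introns. The read sequences are not used here, so which bases the reads held at these places was not tested.

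Hnrnpk, an RNA-binding protein of the nucleus, had 232 and 210 NNC reads on an intron (chr13:58393775-58394059) whose donor lay 16 nt downstream of the annotated one and which stepped over an annotated exon of 16 nt. With all classes it had 752 of 776 reads and 487 of 506, or 96.9% and 96.3%, and 0 reads in either library held the short exon. Capn2, a calpain protease, had 108 of 108 and 82 of 82 reads on an intron with a donor 17 nt downstream, over an exon of 12 nt held by 0 reads. Chmp1a, of the ESCRT machinery, had 112 of 121 and 73 of 77 reads on a donor 25 nt downstream, over an exon of 20 nt held by 5 reads and 0 reads. The short exons and the genome bases gained at the moved donor are printed below for these 3 genes, with capitals in the gained bases where they equal the short exon at the same position from the start.
Hnrnpk short exon, chr13:58393853-58393868, minus strand: GGTGGTTCTGGATATG
Hnrnpk gained bases, chr13:58394060-58394075, minus strand: GtTGagTaTcaATAat
Capn2 short exon, chr1:182482536-182482547, minus strand: GTTCCAGAGGAG
Capn2 gained bases, chr1:182484186-182484202, minus strand: GTaCCgGcaGAGgatgg
Chmp1a short exon, chr8:123210216-123210235, minus strand: ATACCCTGTTCCAGTTGAAG
Chmp1a gained bases, chr8:123212641-123212665, minus strand: gTAagggGcTgtcaTccActtcggg
The bases agreed at 8 of 16 positions in Hnrnpk, 8 of 12 in Capn2 and 6 of 20 in Chmp1a. Over the 15 members where the gained bases could be read, 57 of 164 positions agreed (34.8%). The agreement was not counted for unrelated bases or over all such introns, so whether it is high was not tested.

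The same pattern held for several other strongly read members. Pitpna, a phosphatidylinositol transfer protein, had 221 of 223 and 143 of 143 reads on a donor 4 nt downstream, over an exon of 9 nt. Its relative Pitpnb had 135 of 136 and 95 of 95, over an exon of 8 nt. In Col6a1, a chain of collagen VI, a donor 4 nt downstream stepped over an exon of 9 nt in 199 of 201 and 149 of 150 reads, and an acceptor 37 nt upstream stepped over 2 exons of 42 nt together in 139 of 143 and 109 of 109. In none of these 4 introns did a read of either library hold the short exon. Idh3g, a subunit of mitochondrial isocitrate dehydrogenase, had the most NNC reads of all members (intron chrX:73782104-73782670), 366 and 302, and with all classes 391 of 457 and 328 of 391, or 85.6% and 83.9%. Its intron stepped over an exon of 12 nt with 0 reads, and the annotated intron without that exon drew 64 and 61 reads. Mrpl33, of the mitochondrial ribosome, had 355 of 403 and 206 of 225 reads over an exon of 19 nt that 15 and 3 reads held. Hacd1 and Capn1 had all of their informative reads on such introns in both libraries, as did Acap3 with 20 reads in each.

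Atp2a1, the calcium pump of fast skeletal muscle, had 11 and 535 NNC reads on a donor 26 nt downstream over an exon of 18 nt, and its usage was 100% and 99.4%. The large gap lay in the reads of the gene and not in the usage. All 7 skeletal muscle markers together stood at 61.9 CPM in replicate 1, where Myh1 and Tnnt3 were at 0, and at 1750 CPM in replicate 2. Fewer muscle cells and less RNA per cell cannot be told apart in bulk tissue.

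Reads that hold the short exon are informative reads, so usage is low by construction where many reads hold it, and the levels are given as a description. In 27 of the 45 with enough reads, 0 reads held the short exon in either library, and the mean usage of the member intron had a median of 95.6%, from 8.19% to 100%. These exons had a median length of 12 nt. In 9 members, at least 10 reads held the exon in each library, the usage ran from 1.47% to 10.7% with a median of 5%, and the exons were 17 to 30 nt long with a median of 25 nt. Basigin (Bsg), a membrane glycoprotein, is an example of the second kind: its exon of 25 nt was held by 1098 and 1406 reads, and the member intron had 5.93% and 5.9%.

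Annotated exons of up to 20 nt were seldom held by any read, and those of 21 to 30 nt more often. In genes with reads in both libraries, 3 of 284 annotated internal exons of 1 to 12 nt (1.06%) were held by at least 1 read. The share was 60 of 347 (17.3%) at 13 to 20 nt, 761 of 1194 (63.7%) at 21 to 30 nt and 85.5% at 61 nt or more. At least 3 reads in each library held 0.352% of the exons of 1 to 12 nt and 59.4% of those of 61 nt or more.

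**Figure D2:**
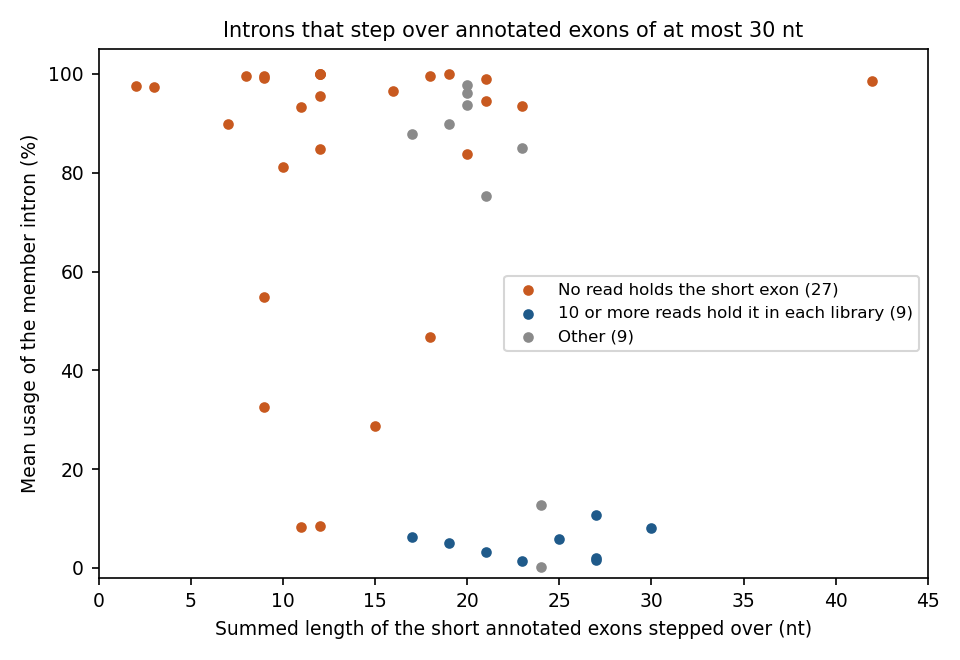
Each point is 1 of the 45 member introns that step over annotated exons of at most 30 nt and have at least 10 informative reads in each library, with the summed length of those exons in nt on the horizontal axis and the mean usage of the intron in percent on the vertical axis. The 27 introns whose short exon no read held have a median of 95.6%, and the 9 whose exon was held by 10 or more reads in each library lie between 1.47% and 10.7%.

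**Figure D3:**
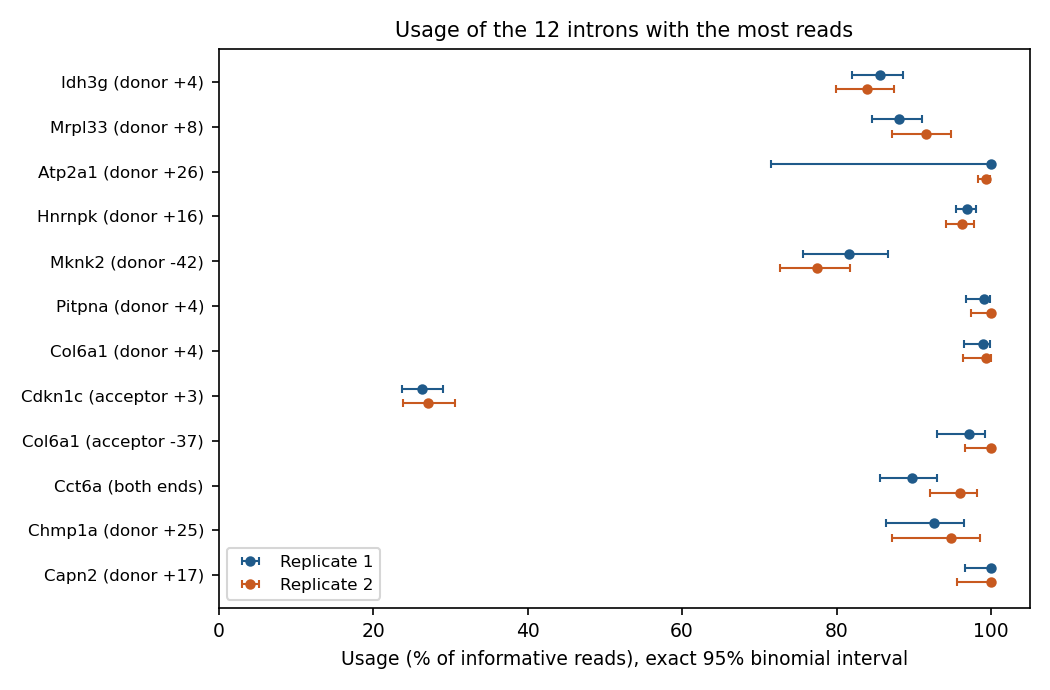
Points give the usage in percent of informative reads of the 12 members with the most reads in replicate 1 and replicate 2, with exact 95% binomial intervals as bars, and labels give the distance of the moved end in nt. Cdkn1c, at 26.4% and 27.1%, is the lowest of the 12, and Atp2a1 has the widest interval, on 11 reads in replicate 1.

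Usage varied widely over the members but was alike in the 2 libraries. Among the 628 members with at least 10 informative reads in each library, the median mean usage was 6.74%, with quartiles of 2.12% and 27.5%, and the medians of the libraries were 6.62% and 6.94%. In both libraries 245 members (39%) reached 10%, 77 (12.3%) reached 50% and 42 (6.69%) reached 90%, while 92 (14.6%) stayed under 1%. The difference between the libraries had a median size of 1.4 percentage points, and for 9 in 10 members it was at most 10.8 points. The largest, 61.5 points, was in Trappc8, on 13 of 13 reads against 5 of 13.

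**Figure D4:**
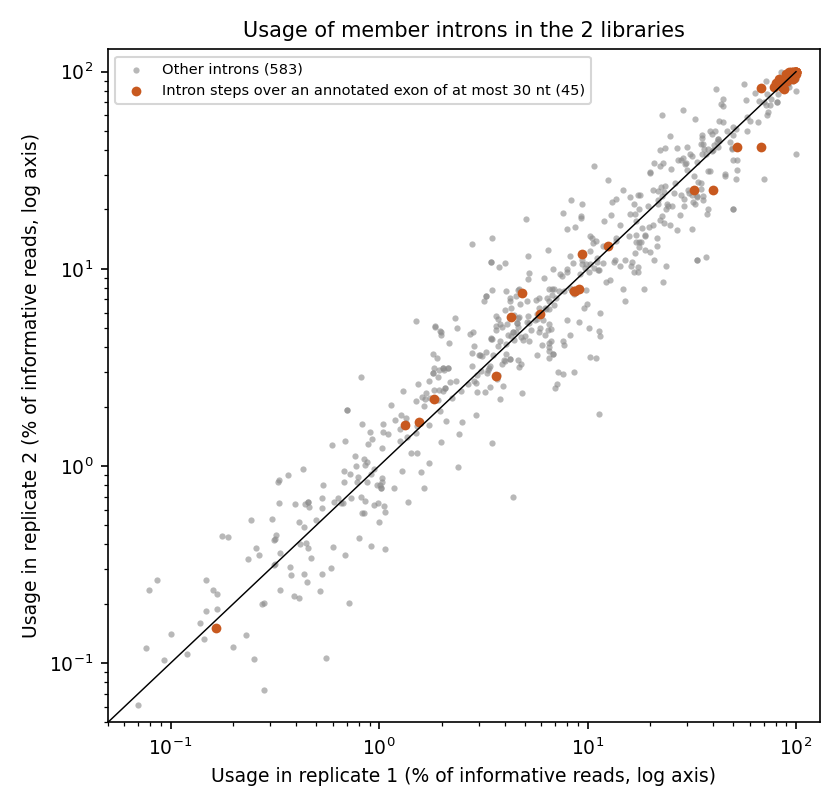
Each point is 1 of the 628 members with at least 10 informative reads in each library, with usage in replicate 1 on the horizontal and in replicate 2 on the vertical axis, both in percent on log axes, and the line marks equal usage. Of the introns that step over a short annotated exon, 19 reach 90% in both libraries and others lie down to 0.157%, and the points follow the line with a median difference of 1.4 percentage points.

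The test across libraries called few introns. By Fisher's exact test on informative reads, two-sided, with Benjamini-Hochberg adjustment over all 1092 unannotated introns tested, 4 were called (0.366%), in Shmt1, Tuba1c, Kyat3 and Nadk, and 0 of them were members. At an unadjusted p under 0.05 there were 21 of 628 members and 65 of 1092 introns in all. The rule asks for 3 reads in each library, which limits how far a member can differ. The lowest adjusted p among members was 0.0501, in Aldh1l1, a folate enzyme, by Fisher's exact test on 12 of 106 reads in replicate 1 (11.3%) and 5 of 273 in replicate 2 (1.83%). With only reads on introns that share an end it was 0.0483, and with a minimum of 20 informative reads 0.0446. The 12 hepatocyte markers together stood at 731 CPM in replicate 1, where Apob was at 0, and at 80750 CPM in replicate 2; their part in these differences was not tested. The test compares reads of these 2 libraries and not animals, and reads without molecular identifiers make its intervals and p-values cover counting error only.

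Of the 42 members at 90% or more in both libraries, 19 stepped over a short annotated exon. Among the others, 7 had an annotated site that pairs with the same other end, and in 5 of these 7 the annotated intron had 0 reads in both libraries, among them those of AI506816, Exoc3l2, Penk and Sfr1. In Sfr1, however, 75 and 54 reads crossed the intron unspliced, and with these counted its usage was 43.8% and 38.3%. Penk, the enkephalin precursor of chromaffin cells, had 25 of 25 and 16 of 16 reads on an acceptor 1 nt upstream of the annotated one. Its bases are shown because the annotated intron ends in GC and the intron in the reads ends in AG, with the last 3 annotated intron bases in capitals.
Penk, chr4:4138131-4138160, minus strand: cttctctcctacAGCccatggcgcggttcc
It was the only 1 of 59 member acceptors with both sites readable whose nearest annotated intron did not end in AG. Ints6, of the Integrator complex, used an acceptor 3 nt upstream in 46 of 48 and 24 of 26 reads, against 2 reads on the annotated intron in each library.

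Members with both ends unannotated had a median usage of 41.4%. Reads that keep such an interval unspliced are not informative reads, and with them counted the median was 40%. Unspliced reads outnumbered the spliced ones in both libraries for 13 of the 628 members. In Lrrc47 the intron of 46 nt, the shortest of all members, had 91.8% and 95% of informative reads, and 58.4% and 52.8% when unspliced reads over it were counted. In Srd5a2, a steroid 5α-reductase, 1 such intron fell from 100% in both libraries to 64.4% and 61.8%. Hap1 stayed at 100% and 93.1%. Cct6a, a chaperonin subunit, had an intron of 50376 nt with 5 and 183 NNC reads, but with all classes it had 254 of 283 and 188 of 196 reads, so the gap lay in the NNC reads alone. In Gm21887 both ends were unannotated at 100% and 95.2% usage.

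In 3 of the 79 introns with both ends unannotated, in Got2, Pak6 and Ptcd3, both ends had moved by the same 4 nt, so that the spliced length was that of the annotated intron. Ptcd3, which acts in mitochondrial translation, had 96 of 97 and 66 of 66 reads on it, and Got2, a mitochondrial aminotransferase, had 19 of 37 and 22 of 77. Direct repeats across the 2 ends of an intron were rare. Of 157 members with both ends readable, 3 had a repeat of at least 8 bases, against 95 of 8899 (1.07%) over all introns. Among the 3 were Taf4 with 9 and Rfng with at least 33, where the repeat reached the end of the bases compared. The stretches around both ends of the Rfng intron are shown because they are nearly the same, with the repeat in capitals and the end of the exon or intron at the middle. Rfng encodes a glycosyltransferase that modifies Notch, and its intron of 133 nt had 19 of 19 and 12 of 12 informative reads, while a further 23 and 17 reads crossed it unspliced.
Rfng donor, chr11:120781327-120781356, minus strand: CCAGCCCAGCCACAGGTCCTTCCCTGGAca
Rfng acceptor, chr11:120781194-120781223, minus strand: CCAGCCCAGCCACAGGTCCTTCCCTGGAta

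The splice dinucleotides could be read for 205 of 419 distinct unannotated donors and 226 of 337 distinct unannotated acceptors. Of the acceptors, 223 ended in AG (98.7%), against 97.1% over all unannotated acceptors and 99.7% of annotated ones with reads. Of the donors, 182 began with GT (88.8%) and 23 with GC (11.2%), so no other donor dinucleotide was seen. Among annotated donors with reads, GC made up 1.3%, and among all unannotated donors 10.6%. The bases are readable only where an annotated transcript or promoter covers the intron side, and the rest were not analysed here.

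The moved boundary changed an annotated exon in 476 members. It lengthened the exon in 212 (44.5%) and shortened it in 264, against 40.7% lengthened over all introns. In 418 of the 476 the annotation joins the nearest site to the same other end. Of the 418, 275 (65.8%) lay in coding sequence, 101 (24.2%) in 5' UTRs, 14 (3.35%) in 3' UTRs and 28 (6.7%) in noncoding transcripts. Over all introns these shares were 80.9%, 11.9%, 1.01% and 6.12%. Judged by length alone, the reading frame was kept in 138 of the 275 coding shifts (50.2%), against 6623 of 18927 (35%) over all unannotated introns. Acceptors kept it in 91 of 153 (59.5%) and donors in 47 of 122 (38.5%). Without the acceptors moved by 3 nt, the share was 78 of 215 (36.3%), against 29.8% over all introns. In 5' UTRs, where no frame is read, 41 of 101 shifts (40.6%) were multiples of 3, against 894 of 2791 (32%) over all introns. The 5' UTR counts include acceptors moved by 3 nt, so they compare with the 50.2% and not with the 36.3%.

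The share in frame was larger at higher read minimums. It was 71 of 116 (61.2%) at 5 or more reads in each library and 24 of 31 (77.4%) at 10 or more. Without the acceptors moved by 3 nt it was 41 of 86 (47.7%) and 13 of 20 (65%). With at least 3 reads in replicate 1 alone it was 46.8%, and in replicate 2 alone 46.1%. These sets are nested and share introns.

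**Figure D5:**
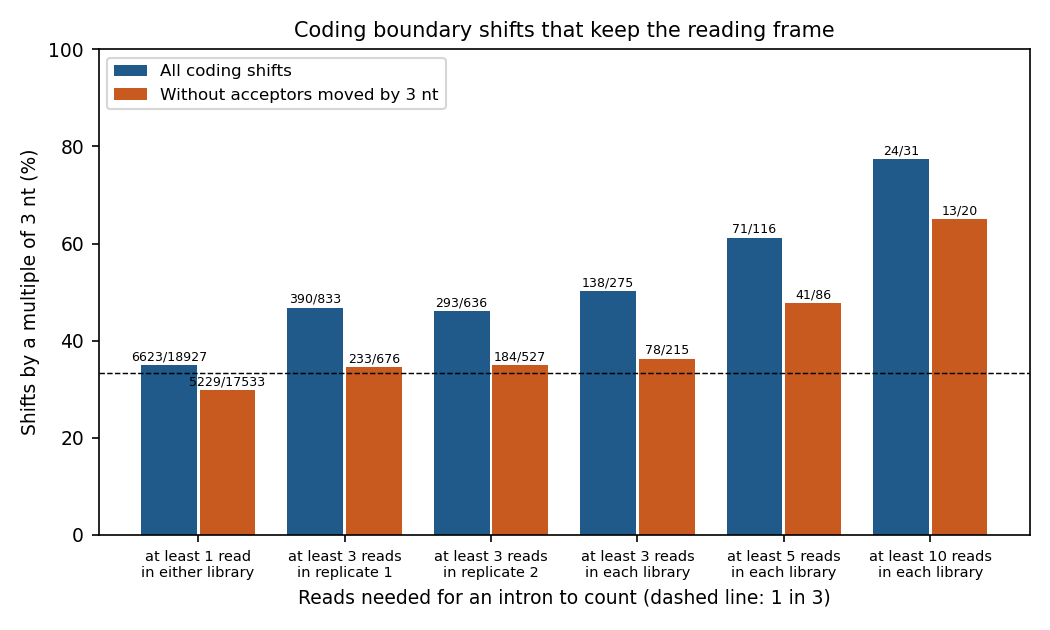
Bars give the percentage of coding boundary shifts by a multiple of 3 nt, for all coding shifts and without acceptors moved by 3 nt, at rising read minimums on the horizontal axis, with counts above the bars and a dashed line at 1 in 3. All coding shifts go from 35% at 1 read in either library to 50.2% at 3 and 77.4% at 10 reads in each library.

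The predicted proteins could be followed in 198 of the 275 coding shifts, where all added bases were readable. Of 103 that kept the frame, 100 ended at the annotated stop codon, against 4683 of 4940 over all unannotated introns. Of 95 that shifted it, 0 did, and 67 (70.5%) met a stop more than 50 nt before the last exon junction. Over all unannotated introns 6543 of 8048 shifted ones (81.3%) met such a stop. In-frame shifts were used more: their median usage was 5.95%, with 53 of 138 at 10% or more, against 2.37% and 24 of 137 for shifted ones. Over all unannotated introns with at least 6 NNC reads in all, the gap was similar. There the values were 4.92% and 91 of 262 in frame, against 1.82% and 42 of 268. The in-frame shifts include acceptors moved by 3 nt, which had a median usage of 11.3% in all regions, and usage was not compared without them. These values are descriptions, with no test, since the read counts that chose the members enter the usage.

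Among the members were unannotated internal exons with both of their introns. There were 31, from 2 to 570 nt long with a median of 110 nt, and 14 had a length divisible by 3. In 26 the outer ends of both introns were annotated sites. The exon of 51 nt in Tbc1d15, a Rab GTPase-activating protein (chr10:115220688-115220738), had 37 and 30 NNC reads on its upstream intron, or 49.4% and 40.5%. Gmpr, guanosine monophosphate reductase, had 2 such exons, of 93 nt at 8.41% and 7.75% and of 144 nt at 4.23% and 3.5%. An exon of 150 nt in Oxtr, the oxytocin receptor, had 91.2% and 87%, but its introns had unannotated outer ends. In Mc2r, the receptor for adrenocorticotropic hormone, an exon of 57 nt lay between annotated exons and drew 7 of 44 and 4 of 21 reads, or 15.9% and 19%.

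Genes of steroid synthesis, the main task of the adrenal cortex, were read deeply and held many members at low usage. Of 32 such genes, 9 held 26 members, and 22 of the 26 were under 2% mean usage, or 20 of 26 when only reads on introns that share an end were counted. With that count 3 introns with both ends unannotated moved far, in Hsd3b1 from 0.383% to 94.4%, in Cyp11a1 from 0.16% to 51.3% and in Cyp21a1 from 2.78% to 75.9%. No annotated intron can share an end with such an intron. Their shared-end values are therefore high by construction and do not measure usage against annotated splicing. Cyp11b1, which makes corticosterone, had an acceptor 21 nt upstream with 74 of 7115 and 50 of 3073 reads, or 1.04% and 1.63%, in frame. Cyp21a1 had an acceptor 18 nt upstream with 46 of 11114 and 25 of 4791 reads, also in frame. Both are in frame by length only, since the added bases could not be read for a stop codon. Star, which brings cholesterol into mitochondria, had an acceptor 3 nt downstream with 22 of 5047 and 5 of 1771 reads, which takes 1 of 284 residues. In Cyp11a1, the side-chain cleavage enzyme, an acceptor 4 nt downstream shifted the frame and cut the predicted protein from 526 to 149 residues, at 0.28% and 0.0729%. The summed level of the list was 74810 CPM in replicate 1 and 31370 CPM in replicate 2, and 3 reads are a smaller share in such deeply read genes than in weakly read ones. Above that level stood both introns of the Mc2r exon, the 81996 nt Cyp21a1 intron and Nr5a1, a nuclear receptor of the adrenal cortex, at 3.72% and 2.9%. That Cyp21a1 intron starts at chr17:34719443, while the other Cyp21a1 members start at 34802070 or above. Its informative reads can thus include reads of other genes in the interval. Its 2.78% is therefore not comparable with the shares of the other Cyp21a1 members.

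Of 26 chromaffin cell genes, 6 held 11 members. Among genes of secretory granules, 4 members in Chga lay between 0.305% and 0.615%, and Chgb had 1 at 0.167% and 0.225%. Scg2, another granule protein, had 1 on 4 of 6 and 6 of 9 informative reads, or 66.7% in each library, while 1422 and 524 reads crossed that interval unspliced, and with these counted it was at 0.28% and 1.13%. Cyb561, an electron carrier of chromaffin granules, had 2 donors at 4.81% and 4.52% and at 7.95% and 9.61%. Of 47 splicing factor genes, 6 held 1 member each. Besides Hnrnpk these were in Hnrnpa1, Hnrnpa2b1, Hnrnpa3, Hnrnpab and Ddx5, and Hnrnpa2b1 was at 5.93% and 5.03%. The hepatocyte and skeletal muscle lists held 0 members. They stood at only 731 and 61.9 CPM in replicate 1, and the rule asks for 3 reads in each library. Atp2a1, a muscle gene that did hold a member, is not on the muscle list. In brown adipocyte genes, Cidea and Fabp4 held 7, and the list stood at 6736 and 7741 CPM, while the erythroid list held 2, both in Hbb-bs, at 11340 and 3623 CPM.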

How the data were processed

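Long-read RNA-seq of 2 adrenal libraries was analysed. Per the deposited notes and file headers, the authors aligned reads to mm10 and assigned them to GENCODE M21 or new transcript models with TALON identifiers; no source used here names the aligner or read filters. The deposited counts are whole reads per model, not normalized, 1143111 and 991731 per library. Introns were read from the model coordinates, and offsets were taken to the nearest annotated site of the same kind on the same strand. Usage was the reads of every class with an intron over all spliced reads with an overlapping intron, with exact Clopper-Pearson 95% intervals. Introns with at least 6 NNC reads in all and 10 informative reads in each library were compared by Fisher's exact test (scipy 1.17.1), with Benjamini-Hochberg adjustment (statsmodels 0.14.6, threshold 0.05), tested on simulated reads first. CPM were computed over the reads in annotated genes.

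No genome was used. Bases came from 141767 M21 transcripts and from RefSeq promoters (GRCm38.p6); the 2810239 bases that both covered were equal. The planned sequence counts therefore cover only sites inside these. Steps over exons of at most 30 nt, and unspliced reads, were examined after seeing the data. The members and lists were chosen with earlier results of these data known. Members named are the 12 with most reads, the 8 of highest usage, those past the test, those in listed genes, and the 5 most read with both ends unannotated or an acceptor moved by 3 nt; other examples were chosen after their values were seen. Alternatives were the read minimum, the informative reads, the adjustment and leaving out a library.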

Additional observations from a re-analysis of the deposited data

How the results depend on the processing

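The number of members followed the read minimum: 6782 at 1 read per table, 316 at 5 and 111 at 10, against 685 at 3. Summing reads of every class gave 1367, and leaving out a replicate gave 1561 to 1948. The share within 12 nt of an annotated site rose to 46.3% at 10 reads, on fewer introns, and the share of coding shifts in frame to 61.2% at 5 reads and 77.4% at 10; leaving out the introns over short exons gave 50.4%. Median usage was 7.56% with only reads on introns that share an end and 6.32% with unspliced reads counted, and 33 rather than 42 members then reached 90% in both libraries. Of 68 named members, 8 moved beyond the spread between libraries with shared ends, 4 of them by over 1.5 times: introns with both ends unannotated in Hsd3b1 (94.4%), Hnrnpab (77.8%), Cyp21a1 (75.9%) and Cyp11a1 (51.3%). No annotated intron can share an end with these, so their shared-end values are high by construction. With Bonferroni adjustment 1 intron was called in place of 4. Among members, 1 was called with shared ends and 1 with a minimum of 20 informative reads, Aldh1l1 in each case. The shares of AG and GT stayed within the interval of the main value under each alternative run. Depth limits what can be seen: 238 members had only 3 reads in their lower library. No paired analysis was possible because there is 1 group of 2 libraries.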
